A study of Arabidopsis thaliana with 9 samples.

Results

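The class III peroxidase genes described here are 57 Arabidopsis loci taken from a fixed list of locus tags. They were found on the ATH1 array, a 3'-biased expression array, through the platform's annotation, and a probe set (the group of short probes that reports a gene) was used when it was annotated to a single locus of the list. This gave 46 loci, each with 1 probe set of its own, of 13333 genes in the series with a probe set to themselves. A further 3 loci share a probe set with another gene, AT4G37520 and AT4G37530 with each other and AT2G18150 with AT2G18140, and were left out because their signals cannot be separated. The other 8 loci (AT1G05240, AT1G05250, AT1G14540, AT3G32980, AT5G06720, AT5G22410, AT5G42180 and AT5G67400) were not analysed here.

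The arrays measured root RNA of 3 lines, 3 arrays each: wild-type Col-0 plants, and 2 lines called cngc1-3 and cngc19, which are labelled as T-DNA knock outs in the Col-0 background and named for genes of cyclic nucleotide-gated cation channels. Plants of each line went from agar to aerated hydroponics on day 18, grew there for 7 days and were harvested on day 25 at growth stage 3.90, and each tube pooled the roots of 20 to 30 plants. Caesium toxicity is named in the title of the series, yet the labels give no caesium treatment for any array, and the number of insertion lines behind each mutant label is not given in the sources used here. The labels do not say that the 3 tubes of a line were separate cultures, so p-values measure the spread between tubes, which may be technical.

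Class III peroxidases are secreted haem enzymes of plants that use hydrogen peroxide to oxidise phenolic substrates in the cell wall. They couple monolignols into lignin, crosslink extensins and other wall proteins, and can also produce reactive oxygen species, so they can both stiffen and loosen walls. In roots they are known from the lignified xylem and Casparian strip, from root hairs and from the zone where dividing cells turn to elongation. The family is large and many genes arose by tandem duplication.

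Several arrays stood apart before any peroxidase was considered. Values are deposited MAS5 signals, and not all marker signals on Col-0 replicates 2 and 3 followed the root label. PYK10, a beta-glucosidase abundant in roots, had signals of 261 and 448 on these arrays and 3762 to 5559 on the other 7. Of 26 root markers 3 had a probe set of their own. Their summed signal was 720.5 and 506.8 on Col-0 replicates 2 and 3 against 4027.7 to 5772.6 on the other 7, where most of it was PYK10. The other markers, the root hair expansins EXPA7 and EXPA18, were not low on Col-0 replicate 2. EXPA7 had 318 there, its highest signal, against 23 to 195 on the other 7, and 28.6 on replicate 3. EXPA18 had 142 on replicate 2, within the 130 to 184 of the other 7, and 30.3 on replicate 3. Photosynthesis genes, measured for 6 of 32 shoot markers, summed to 13728.9 on Col-0 replicate 3 and 1052.7 on Col-0 replicate 2, against 103.6 to 906.2 elsewhere. The 4 measured housekeeping genes of 15 summed to 1036.9 on Col-0 replicate 2, against 2471.9 to 5140.2 elsewhere. Relative to the median of the remaining arrays, the spiked-in control transcripts stood at 17.5 for Col-0 replicate 2, at 6.29 for replicate 3 and at 0.668 to 1.25 elsewhere. On cngc1-3 replicate 3 the 3' to 5' signal ratio of actin, which is high for degraded or incompletely copied RNA, was 98.5 on one control pair and 199.7 on the other, and at most 14.4 on any other array. The same ratio of GAPDH was 35.2 on Col-0 replicate 3 and 13.5 on cngc1-3 replicate 3 and at most 1.54 elsewhere on one control pair, and 2.81, 6.37 and at most 1.07 on the other pair. The part of these differences in the results below was not tested, and results that rest on the Col-0 arrays are given with and without replicates 2 and 3.

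Most peroxidase genes had lower signals on Col-0 replicates 2 and 3 than on the other 7 arrays. Of the 46 genes, 39 (84.8%) passed the filter on low values, which kept probe sets at or above the 40th percentile of mean log2 signal over all 9 arrays, and the family's counts below refer to these. On the log2(signal + 16) scale, the median tested peroxidase lay 2.14 below its own median over the 6 mutant arrays on Col-0 replicate 2, a deviation of -2.14, and the deviation was -2.61 on Col-0 replicate 3. The same median over all 13648 tested probe sets was -0.30 and 0.06, a comparison not matched for signal level. On the other 7 arrays 33 to 36 of the 46 peroxidases lay above the array's median signal, against 18 and 15 on Col-0 replicates 2 and 3. Both arrays also stood apart over all tested probe sets. Log2 signals of Col-0 replicate 2 correlated with those of the other 7 arrays at r = -0.040 to -0.019, and those of replicate 3 at 0.259 to 0.376. On Col-0 replicate 1 the peroxidases' median deviation was 0.31, against 0.05 for all tested probe sets, and on the mutant arrays it lay between -0.09 and 0.12. Col-0 replicates 2 and 3 were the 2 lowest of the 9 arrays for 27 of the 39 peroxidases (69.2%) and for 23.6% of all tested probe sets. They were the 2 highest for AT5G64110 and AT2G34060 alone, 5.13% of the tested peroxidases against 21.9% of all. Of these, AT5G64110 passed the filter only through its Col-0 arrays. Among the 27, AT5G64120 (PRX71), AT5G14130, AT1G34510 and AT2G39040 passed it only through their mutant arrays. Their mean log2 signal in Col-0 alone was under the filter. Because the samples are bulk tissue labelled as roots, fewer cells of a type and less RNA per cell cannot be told apart. What set Col-0 replicates 2 and 3 apart was not tested.

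**Figure D1:**
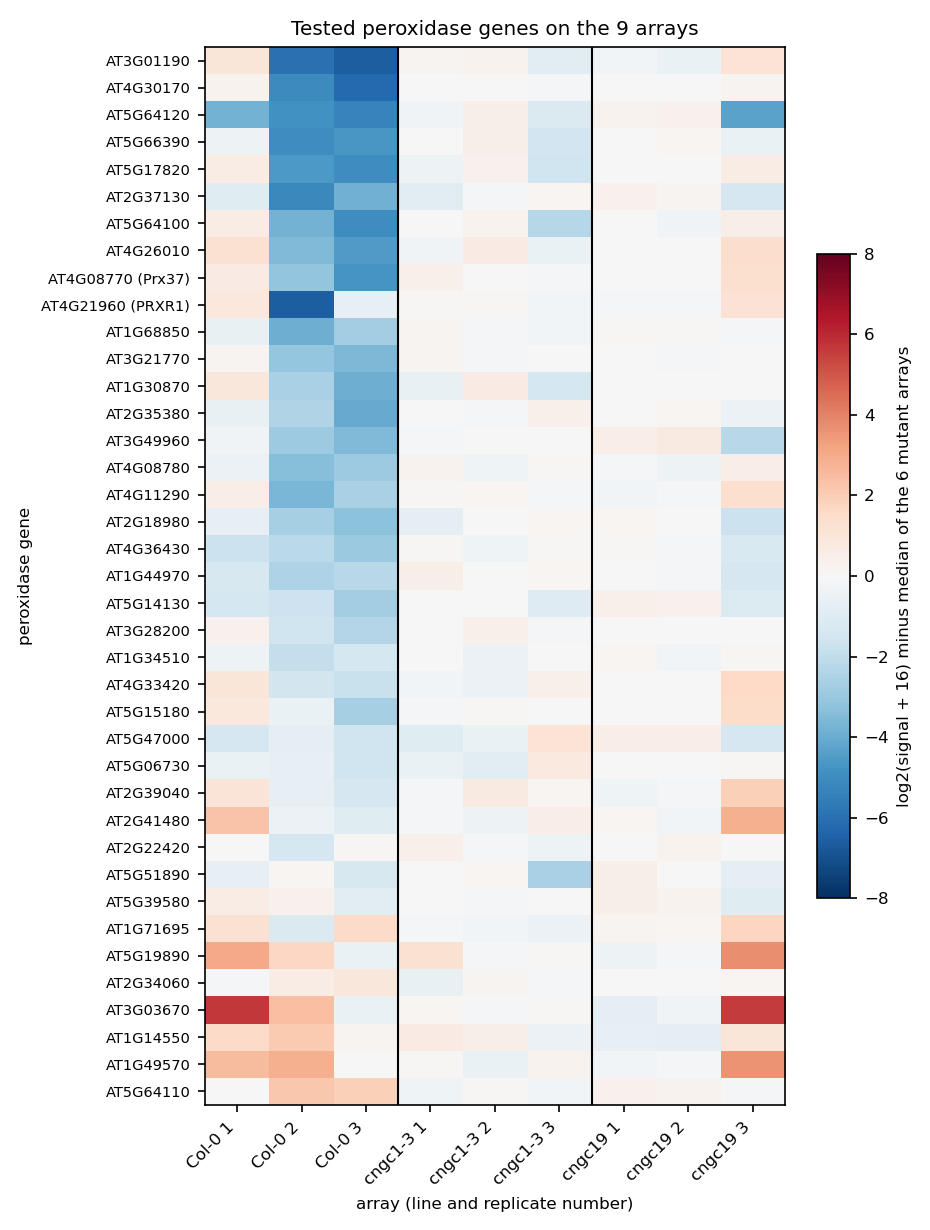
The heat map shows the 39 tested peroxidase genes (rows) on the 9 arrays (columns, line and replicate number), coloured by log2(signal + 16) minus the gene's median over the 6 mutant arrays. Most rows are blue on Col-0 replicates 2 and 3 (median deviations -2.14 and -2.61), and Col-0 replicate 1 and cngc19 replicate 3 share their darkest red cell, AT3G03670.

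How far these arrays lay below the others differed from gene to gene. AT4G30170 had signals of 1671, 24.2 and 2.66 on Col-0 replicates 1, 2 and 3, 1372, 1361 and 1222 in cngc1-3, and 1309, 1328 and 1596 in cngc19. AT3G01190 had 3520, 11.9 and 2.79 in Col-0, 2047, 2171 and 950 in cngc1-3, and 1515, 1233 and 3855 in cngc19. For both genes Col-0 replicate 1 lay within or above the mutant arrays while the other Col-0 arrays were near the bottom of the scale. PRXR1 (AT4G21960) had 5926, 17.7 and 2073 in Col-0, 3553, 3450 and 2839 in cngc1-3, and 3144, 2907 and 7261 in cngc19, so it was very low on Col-0 replicate 2 and only moderately low on replicate 3.

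Lignin and vessel peroxidases were represented by 7 of the 9 listed loci. PRX72 (AT5G66390), required for normal lignification, had signals of 488, 5.98 and 11.1 in Col-0, 639, 914 and 214 in cngc1-3, and 682, 723 and 460 in cngc19. Its Col-0 replicate 1 value lay inside the mutant range. Against all 3 Col-0 arrays its log2 fold change was 2.96 ± 1.02 (SE) in cngc1-3 and 3.22 ± 1.02 in cngc19, and against Col-0 replicate 1 alone it was 0.04 and 0.31. PRX71 (AT5G64120), which acts in lignin formation and limits cell growth, had 50.2, 14.4 and 5.78 in Col-0, 716, 1202 and 381 in cngc1-3, and 1071, 1108 and 30.4 in cngc19. All cngc1-3 arrays were above all Col-0 arrays, whereas cngc19 was split, with replicate 3 below Col-0 replicate 1. PRX25 (AT2G41480), another lignin peroxidase, had 613, 78.3 and 50.4 in Col-0, 99.6, 81.7 and 170 in cngc1-3, and 128, 94.8 and 910 in cngc19. High values were found on Col-0 replicate 1 and cngc19 replicate 3, so the 3 lines overlapped.

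The lines overlapped in the xylem and lignified-tissue genes. AT4G33420, known from xylem vessels, had signals of 761, 131 and 101 in Col-0, 333, 275 and 513 in cngc1-3, and 387, 384 and 1197 in cngc19. Its vessel counterpart AT5G51890 had 67.1, 131 and 39 in Col-0, 117, 133 and 5.86 in cngc1-3, and 167, 116 and 65.3 in cngc19. The lowest value of AT5G51890 was on cngc1-3 replicate 3, where both actin and GAPDH had high 3' to 5' ratios. AT2G22420, a peroxidase of lignified tissues, had 70.9, 16.1 and 74.7 in Col-0, 96.4, 62 and 47.9 in cngc1-3, and 71.1, 85.6 and 67.8 in cngc19, and it was low on Col-0 replicate 2 only. PRX52 (AT5G05340), a lignin peroxidase of the stem, did not pass the filter and had its highest signal, 127, on Col-0 replicate 2, with 3.1 to 32.7 elsewhere.

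AT4G26010, a root hair peroxidase that acts on extensins, was the only 1 of 4 listed root hair loci with a probe set of its own. Its signals were 1101, 25.2 and 4.74 in Col-0, 385, 729 and 320 in cngc1-3, and 461, 465 and 1270 in cngc19. The 2 brightest arrays were again Col-0 replicate 1 and cngc19 replicate 3, and the lines overlapped. Its log2 fold change was 2.24 ± 1.18 (SE) in cngc1-3 and 2.76 ± 1.18 in cngc19 against all Col-0 arrays, and -1.27 and -0.75 against Col-0 replicate 1 alone.

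All 3 listed peroxidases under the repressor UPBEAT1, a transcription factor that sets where root cells pass from division to elongation, had a probe set. AT4G11290 had signals of 596, 17.1 and 53.7 in Col-0, 438, 465 and 384 in cngc1-3, and 345, 368 and 1044 in cngc19. AT5G17820 had 1406, 22.1 and 13.8 in Col-0, 698, 1168 and 293 in cngc1-3, and 928, 905 and 1417 in cngc19. Both were low on Col-0 replicates 2 and 3 and had their 2 highest signals on Col-0 replicate 1 and cngc19 replicate 3. The remaining target, AT4G16270, did not pass the filter: its signal was 301 on Col-0 replicate 2 and 3.1 to 40.4 elsewhere. UPB1 itself (AT2G47270) had 118, 8.3 and 30.3 in Col-0, 68.7, 95.9 and 115 in cngc1-3, and 56.5, 56.8 and 81.2 in cngc19, so the regulator too was lowest on Col-0 replicates 2 and 3.

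**Figure D2:**
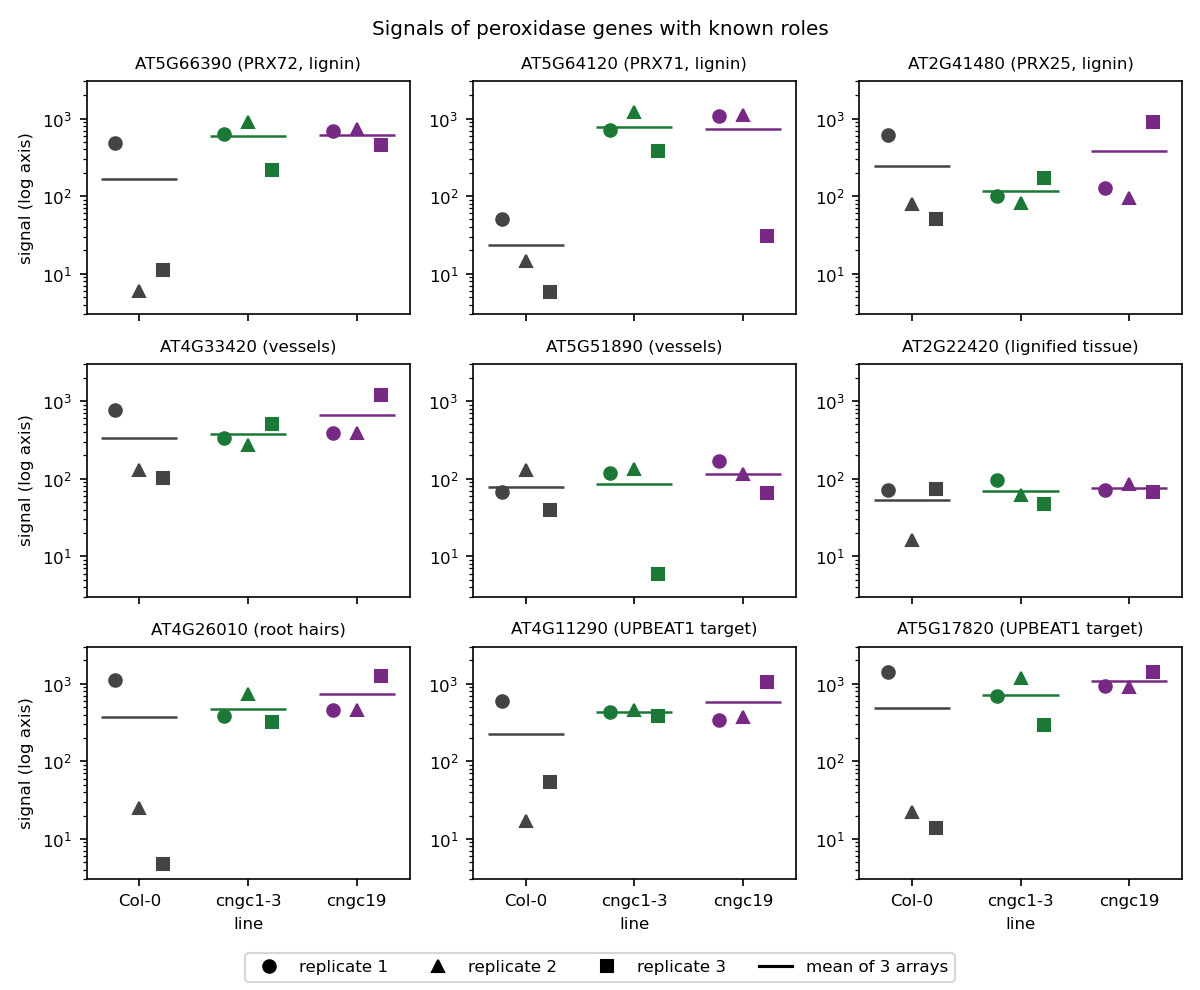
Each panel plots the MAS5 signal (log axis) of a peroxidase with a known role on the 9 arrays, with the replicate number shown by the symbol and the mean of 3 arrays by the line. Col-0 replicate 1 lies among the mutant arrays for PRX72 (488 against 214 to 914), and cngc19 replicate 3 lies with Col-0 for PRX71 (30.4).

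Genes in tandem differed in how alike their patterns were. The RefSeq gene table places AT5G64100, AT5G64110 and AT5G64120 next to each other on chromosome 5. AT5G64100 had signals of 3625, 162 and 62 in Col-0, 2494, 2968 and 479 in cngc1-3, and 2287, 1955 and 3304 in cngc19. AT5G64110 had 21.3, 151 and 124 in Col-0, 13.5, 23 and 15.5 in cngc1-3, and 31.3, 27.7 and 18.6 in cngc19. With PRX71 as the neighbour of AT5G64110, the middle gene was high on Col-0 replicates 2 and 3, where both flanking genes were low; it passed the filter only through its Col-0 arrays. AT4G08770 (Prx37), whose overexpression restricts growth, and its neighbour AT4G08780 on chromosome 4 were closer to each other. Prx37 had 1029, 57 and 8.91 in Col-0, 869, 623 and 580 in cngc1-3, and 634, 646 and 1551 in cngc19. AT4G08780 had 282, 21.6 and 38.1 in Col-0, 481, 297 and 413 in cngc1-3, and 366, 293 and 571 in cngc19, and all 6 mutant arrays were above Col-0 replicate 1. The remaining pair, AT5G58390 and AT5G58400 on chromosome 5, did not pass the filter, with highest signals of 25.8 and 266 on Col-0 replicate 2 and at most 16.8 and 40.5 on the mutant arrays.

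Against all 3 Col-0 arrays most peroxidases had higher mean signals in both mutants, but none passed the test. In cngc1-3 the mean log2 signal was higher for 29 of 39 genes and lower for 10, against 48.9% of all tested probe sets higher. The median log2 fold change was 1.59 against -0.03 for all tested probe sets. In cngc19 the mean log2 signal was higher for 32 and lower for 7, against 52% higher, with a median of 1.69 against 0.05. The filter removed 7 genes, 6 of them brightest on Col-0 replicate 2 or 3. Without the filter, 29 of 46 genes were higher in cngc1-3 and 33 of 46 in cngc19. The share over all probe sets was not computed there. The 2 comparisons share their Col-0 arrays. By limma with a two-sided test, 0 of 39 peroxidases and 0% of all 13648 tested probe sets had an adjusted p under 0.05 in either comparison, and the smallest adjusted p among the peroxidases was 0.181 in cngc1-3 and 0.273 in cngc19. At an unadjusted p under 0.05 there were 18 peroxidases in cngc1-3 (46.2%), 17 higher and 1 lower, against 24.2% of all tested probe sets. The 1 lower gene, AT5G64110, passed the filter only through its Col-0 arrays, so its direction carries no weight. In cngc19 there were 20 (51.3%), 19 higher and 1 lower, against 18.1%. All 3 cngc1-3 arrays were above all 3 Col-0 arrays for 9 peroxidases, against 13.1% of all tested probe sets, and below for 0, against 11.3%. All 3 cngc19 arrays were above for 7, against 7.45%, and below for 0, against 6.88%. Some of the higher genes passed the filter only through their mutant arrays, so their direction carries no weight either. They include PRX71, AT5G14130 and AT1G34510, which had an unadjusted p under 0.05 by limma in both lines. AT5G06730, AT5G47000 and AT2G39040 also passed in this way.

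The excess of higher values rested on Col-0 replicates 2 and 3. Col-0 replicate 1 was next taken as the only wild-type array, with its spread assumed to be that of the mutant lines. The peroxidases' median log2 fold change was -0.27 in cngc1-3 and -0.24 in cngc19, against -0.08 and -0.05 for all tested probe sets. Higher mean signals were then found for 14 of 39 genes in cngc1-3 and 17 of 39 in cngc19. The shares over all tested probe sets were not computed. No peroxidase had an adjusted p under 0.05 by limma, and 4 in cngc1-3 and 2 in cngc19 had an unadjusted p under 0.05, against 8.47% and 2.67% of all tested probe sets. Without Col-0 replicate 1 instead, so that Col-0 consisted of replicates 2 and 3, 23 of 39 peroxidases passed the limma test in cngc1-3 and 25 in cngc19, against 35.2% and 32.6% of all tested probe sets. Both counts include AT5G64110, which passed the filter only through its Col-0 arrays. They also include PRX71, AT5G14130 and AT1G34510, which passed it only through their mutant arrays. Without cngc19 replicate 3 only PRX71 passed in each comparison, against 0.103% of all tested probe sets in cngc1-3 and 0.0806% in cngc19. Weighting arrays by quality gave 19 and 18 peroxidases past the test, against 9.0% and 7.67% of all. Leaving out Col-0 replicates 2 and 3 together with replicate 3 of both mutants gave 17 and 24, against 25.2% and 23.8% of all, with a single wild-type array; median log2 fold changes were then -0.20 and -0.26. With all 9 arrays, a pseudocount of 64 in place of 16 gave median log2 fold changes of 0.88 in cngc1-3 and 1.15 in cngc19.

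**Figure D3:**
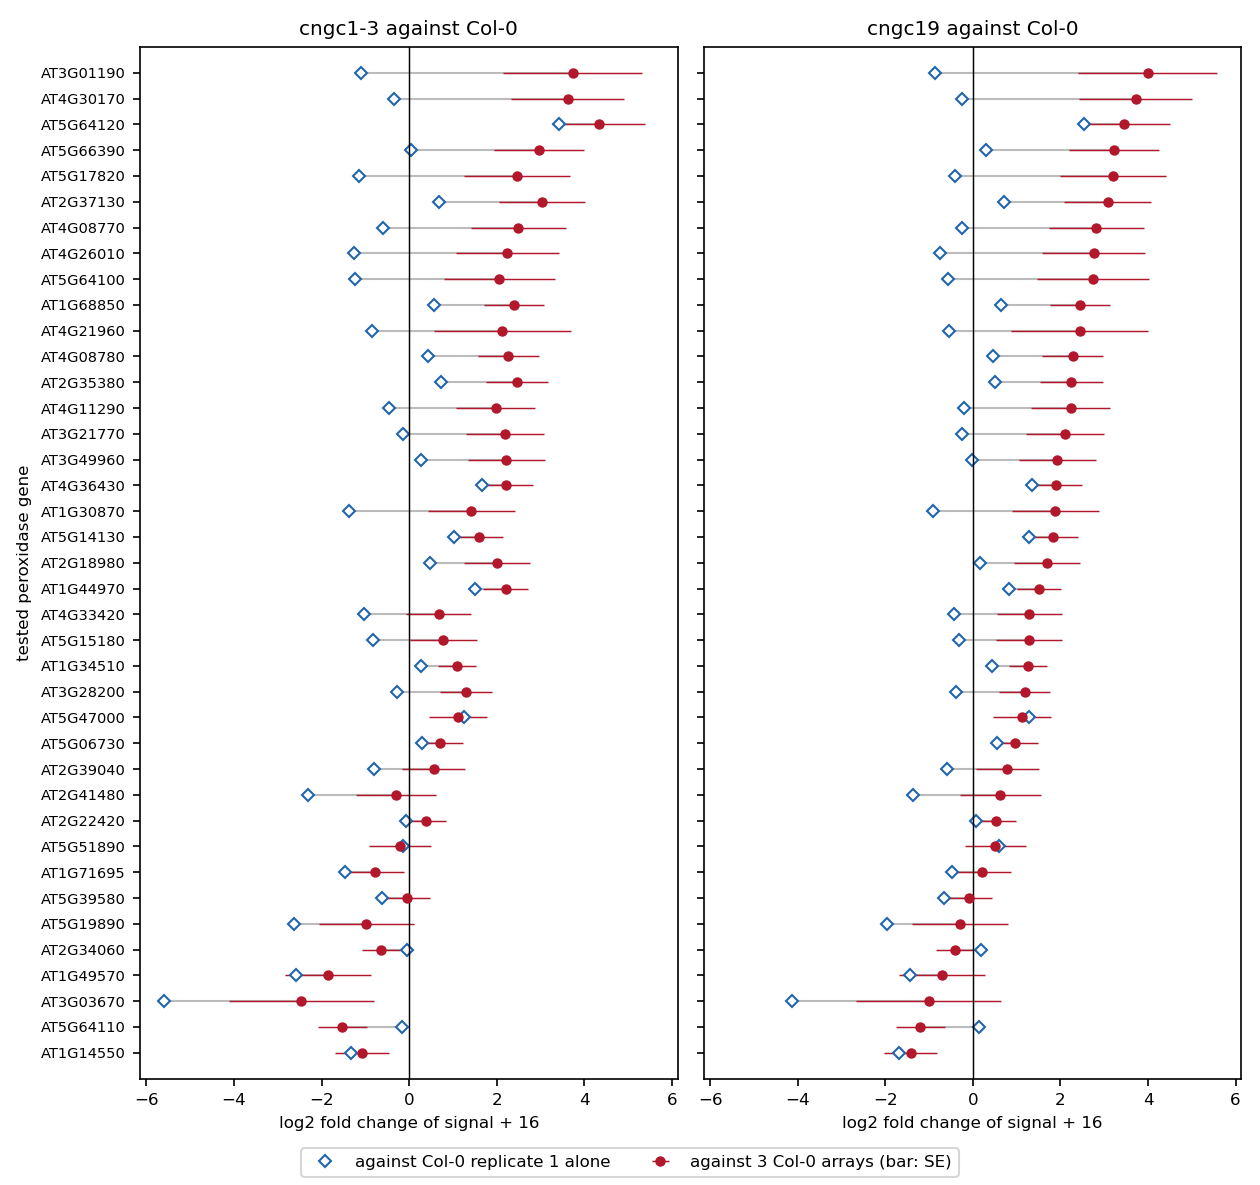
Log2 fold changes of signal + 16 are shown for the 39 tested peroxidases in each mutant line against 3 Col-0 arrays (filled circles, bars are SE) and against Col-0 replicate 1 alone (open diamonds). The medians move from 1.59 to -0.27 in cngc1-3 and from 1.69 to -0.24 in cngc19.

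The sign of the log2 fold change was compared between all 3 Col-0 arrays and Col-0 replicate 1 alone. It was the same for 24 of 39 genes in cngc1-3 and 20 of 39 in cngc19, among them the genes that follow. Both fits share Col-0 replicate 1 and the mutant arrays, and the share over all tested probe sets was not computed. AT4G36430 had signals of 334, 250 and 131 in Col-0, 1218, 902 and 1209 in cngc1-3, and 1248, 1105 and 483 in cngc19, so all 6 mutant arrays exceeded all 3 Col-0 arrays. Its log2 fold change was 2.22 ± 0.60 (SE) in cngc1-3 (limma adjusted p = 0.181) and 1.90 ± 0.60 in cngc19 (0.273), and 1.67 and 1.35 against Col-0 replicate 1 alone. AT1G44970, a peroxidase known from the tapetum of anthers, had 143, 53.8 and 69.1 in Col-0, 515, 377 and 425 in cngc1-3, and 368, 350 and 140 in cngc19. The cngc1-3 arrays lay above all others, and cngc19 replicate 3 was just under Col-0 replicate 1. The log2 fold change of AT1G44970 in cngc1-3 was 2.2 ± 0.51 (SE; limma adjusted p = 0.181), or 1.51 against Col-0 replicate 1 alone. For PRX71 the log2 fold change in cngc1-3 was 4.33 ± 1.06 (limma adjusted p = 0.181) and in cngc19 3.45 ± 1.06 (0.273), or 3.42 and 2.54 against Col-0 replicate 1 alone. PRX71 passed the filter only through its mutant arrays, so its direction carries no weight.

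For AT2G35380 and AT1G68850 the difference from the mutants was smaller on Col-0 replicate 1. AT2G35380 had signals of 184, 42.1 and 2.32 in Col-0, 295, 272 and 387 in cngc1-3, and 281, 327 and 207 in cngc19. AT1G68850 had 209, 7.25 and 33.9 in Col-0, 377, 309 and 277 in cngc1-3, and 352, 349 and 302 in cngc19. In both genes all 6 mutant arrays exceeded the 3 Col-0 arrays. With Col-0 replicate 1 alone, the log2 fold change in cngc1-3 went from 2.47 ± 0.71 (SE) to 0.72 for AT2G35380. For AT1G68850 it went from 2.39 ± 0.68 to 0.57. Over the family, all 6 mutant arrays were above Col-0 replicate 1 for 6 genes and below it for 6 others. Those below were AT5G64100, AT5G39580, AT4G30170, AT3G03670, AT1G14550 and AT1G30870. The shares over all tested probe sets were not computed. AT5G14130 had 35.4, 26 and 3.53 in Col-0, 122, 114 and 48.5 in cngc1-3, and 165, 155 and 47.1 in cngc19, with replicate 3 of each mutant closest to Col-0. Its log2 fold change in cngc19 was 1.84 ± 0.55 (SE, limma adjusted p = 0.273), and against Col-0 replicate 1 alone it was 1.28 in cngc19 and 1.03 in cngc1-3. AT5G14130 too passed the filter only through its mutant arrays.

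Against all 3 Col-0 arrays, lower mean signals in the mutants were few and mostly came from 1 or 2 bright Col-0 arrays. Against Col-0 replicate 1 alone they were the majority in both lines. All 3 cngc1-3 arrays lay below that array for 19 of 39 genes (34.1% of all tested probe sets) and above it for 10 (28.0%). For cngc19 the counts were 8 below (23.6%) and 9 above (21.6%). AT1G14550 had signals of 142, 216 and 48 in Col-0, 69.2, 60 and 22.5 in cngc1-3, and 18.4, 17.2 and 90.4 in cngc19. All 6 mutant arrays were below Col-0 replicates 1 and 2 but not all below replicate 3, and the log2 fold change in cngc19 was -1.42 ± 0.61 (SE; limma adjusted p = 0.273), or -1.68 against Col-0 replicate 1 alone. AT1G49570 had 227, 292 and 27.1 in Col-0, 29.7, 12.9 and 35.1 in cngc1-3, and 20.9, 23.3 and 493 in cngc19. AT2G34060 had 34.3, 67 and 86.4 in Col-0, 19.7, 48.2 and 33.2 in cngc1-3, and 40.5, 36.4 and 45.8 in cngc19. The lines overlapped in all 3 genes. AT5G64110, whose signals are given above, passed the filter only through its Col-0 arrays. Its log2 fold changes were -1.53 ± 0.56 (SE) in cngc1-3 and -1.20 ± 0.56 in cngc19, and -0.17 and 0.15 against Col-0 replicate 1 alone.

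Col-0 replicate 1 and cngc19 replicate 3 resembled each other, in the peroxidases as in all tested probe sets. Their log2 signals correlated at r = 0.951 over the 39 tested peroxidases and at 0.950 over all 13648 probe sets. For cngc19 replicate 3 with cngc19 replicates 1 and 2, r was 0.519 and 0.534 over the peroxidases and 0.803 and 0.814 over all. For cngc19 replicates 1 and 2 with each other it was 0.995 and 0.985. These correlations are across genes within arrays, as a description. Between cngc19 replicates 1 and 3, 24 of 39 peroxidases differed by more than 1 on the log2 scale, against 19.1% of all tested probe sets; between replicates 1 and 2 the number was 0, against 0.176% of all, and between Col-0 replicate 1 and cngc19 replicate 3 it was 4, against 2.85% of all. With Col-0 replicates 2 and 3 set aside, this pair held the 2 highest signals of the remaining 7 arrays for 17 of the 39 genes (43.6%, against 25.3% of all tested probe sets) and the 2 lowest for 8 (20.5%, against 19.1%).

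With Col-0 replicates 2 and 3 set aside, the gene with the widest log2 range was AT3G03670, with signals of 1494, 147 and 4.72 in Col-0, 17.4, 12.5 and 16.2 in cngc1-3, and 1.38, 8.48 and 1460 in cngc19. It was bright on Col-0 replicate 1 and cngc19 replicate 3 and near the bottom of the scale on the other mutant arrays. AT5G19890 followed the same arrays, with 652, 237 and 39.4 in Col-0, 170, 61.8 and 69.1 in cngc1-3, and 45.5, 61.7 and 1055 in cngc19. AT1G49570 and PRX25 also had their brightest mutant array in cngc19 replicate 3. In the opposite direction, AT3G49960 had 165, 13.3 and 3.67 in Col-0, 194, 212 and 203 in cngc1-3, and 309, 346 and 32.7 in cngc19. AT2G37130 had 1075, 44.3 and 132 in Col-0, 1115, 1955 and 2341 in cngc1-3, and 2754, 2501 and 821 in cngc19, so its cngc19 replicate 3 was under every other mutant array. On cngc19 replicate 3, 13 peroxidases were more than 1 log2 above their median over the mutant arrays, against 7.32% of all tested probe sets, and 8 more than 1 below it, against 6.94%, among the latter PRX71, AT4G36430, AT5G47000 and AT2G18980. On cngc1-3 replicate 3 the numbers were 1 above, AT5G47000, against 0.901% of all, and 7 below, against 7.33%, among the latter PRX72, AT5G64100 and AT1G30870. Which property of these tubes moves with the peroxidases was not tested.

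**Figure D4:**
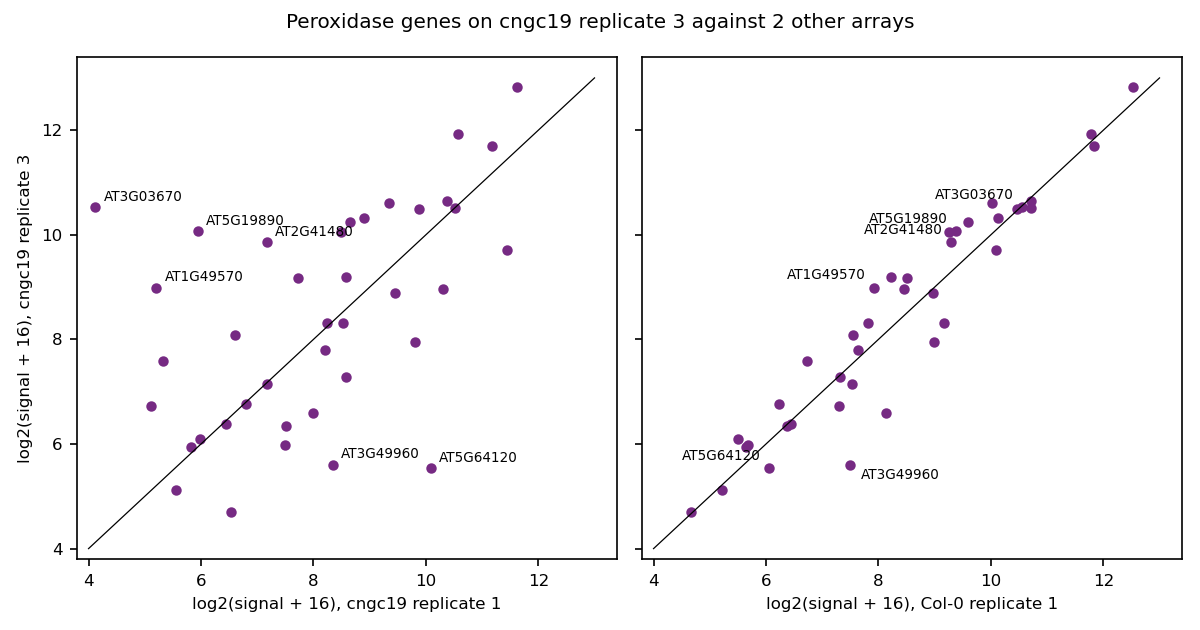
Each point is a tested peroxidase gene, with log2(signal + 16) on cngc19 replicate 3 (vertical axis) against cngc19 replicate 1 (left) and Col-0 replicate 1 (right); the line marks equal values. The 39 points scatter on the left (r = 0.519, against 0.803 over all tested probe sets) and lie nearer the line on the right (r = 0.951, against 0.950 over all).

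Some peroxidases varied little between the mutants and Col-0 replicate 1, but the family varied more than all tested probe sets. Over those 7 arrays the log2 range was under 1 for 9 of the 39 genes (49.9% of all tested probe sets) and over 3 for 6 genes (2.61% of all), with a median of 1.85 against 1.00. AT3G21770 had the smallest range, 0.34, with signals of 1655, 157 and 107 in Col-0, 1675, 1341 and 1468 in cngc1-3, and 1447, 1318 and 1441 in cngc19. AT4G30170 and AT3G28200 followed with ranges of 0.45 and 0.47, and AT1G34510 with 0.60. At the other end were AT3G03670 with 6.44, PRX71 with 4.72, AT1G49570 with 4.14, AT5G19890 with 4.12, PRX25 with 3.24 and AT5G51890 with 3.06. Between these extremes lay AT5G39580 (1.54), AT5G15180 (1.56), AT5G06730 (1.73) and AT2G39040 (2.26).

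No peroxidase passed the test between the mutant lines. In cngc1-3 against cngc19 the mean log2 signal was higher for 10 of 39 genes and lower for 29, against 45.6% of all tested probe sets higher. The median log2 fold change was -0.24 against -0.03 for all tested probe sets. By limma 0 peroxidases had an adjusted p under 0.05, against 0% of all, and 0 had an unadjusted p under 0.05, against 0.0953%; the smallest adjusted p was 1. The signals of cngc1-3 and cngc19 were fully apart for AT1G44970, higher in cngc1-3 (4.81% of all tested probe sets), and AT1G71695, lower in cngc1-3 (3.45% of all). AT1G71695 had signals of 57.5, 54.6 and 44.3 in cngc1-3, 81.1, 75.9 and 257 in cngc19, and 172, 20.6 and 218 in Col-0. Its log2 fold change between the mutants was -0.99 ± 0.68 (SE), and that of AT1G44970 was 0.69 ± 0.51. With Col-0 replicates 2 and 3 left out of the shared spread, AT1G71695 alone had an unadjusted p under 0.05, against 1.71% of all. With replicate 3 of both mutants left out as well, 2 peroxidases passed the test, AT5G47000 and AT1G14550, against 0.777% of all, and the median log2 fold change was -0.02.

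Few other genes of lignin and peroxide metabolism had a probe set of their own, and none passed the test in any comparison. Of 18 monolignol synthesis genes 2 were measured. HCT, a hydroxycinnamoyl transferase, had signals of 933, 178 and 331 in Col-0, 396, 492 and 396 in cngc1-3, and 368, 440 and 905 in cngc19, bright on the same arrays as PRX25. CCR2, a cinnamoyl-CoA reductase, had 52.7, 14.8 and 4.93 in Col-0, 79.9, 76.8 and 12.3 in cngc1-3, and 53.5, 71.8 and 75.8 in cngc19. Of 17 laccases, which also oxidise monolignols, only LAC16 was measured, at 2.56 to 12.3, under the filter. Of 21 genes of hydrogen peroxide supply and removal 3 were measured, all NADPH oxidase genes; AT4G25090 had 145, 28.3 and 3.37 in Col-0, 98.2, 113 and 140 in cngc1-3, and 73, 104 and 159 in cngc19. AT4G11230 had 75.2, 156 and 7.85 in Col-0 and 13.7 to 100 in the mutants, and AT1G19230 had 13 to 66.5 in Col-0 and 32.1 to 111 in the mutants. Of 8 genes of the Casparian strip and its regulators only UPB1 was measured.

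The 7 peroxidases under the filter were mostly brightest where the rest of the family was dim. AT4G17690, AT4G16270, AT5G58390, AT5G58400, AT5G40150 and PRX52 had their highest signal on Col-0 replicate 2 or 3, and AT5G24070 had its highest, 90.1, on Col-0 replicate 1. Of all tested probe sets, 27.4% were highest on Col-0 replicate 2 and 22.8% on Col-0 replicate 3. The share among all probe sets under the filter was not computed. AT5G40150 reached 132 and AT4G17690 reached 76.4 on Col-0 replicate 3. Outside Col-0 replicates 2 and 3, none of these 7 genes exceeded 90.1 on any array.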

How the data were processed

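Each of the 9 root samples was hybridised to 1 ATH1 array. The authors deposited linear signal intensities from MAS5 and GCOS, as the submitters' processing notes name them; neither versions nor detection calls are given in the sources used here. MAS5 scales each array to a common mean, and the mean after trimming 2% at each end was 100.0 on all 9 arrays, so signals are relative within an array, and the deposited scaling was kept. The number of arrays limits the precision.

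Sample titles gave the line and the replicate number. The table held 22810 probe sets, 64 of them the maker's controls; of the other 22746, 13513 had 1 gene symbol in the platform annotation, 503 several and 8730 none. Names and gene neighbours were updated through a RefSeq gene table. Signals were analysed as log2(signal + 16), which understates fold changes of dim genes. Probe sets at or above the 40th percentile of mean log2 signal were tested (13648) with limma 3.58.1 in R 4.3.3 (lmFit, eBayes with trend), all 9 arrays in one model, with 6 residual degrees of freedom, two-sided and adjusted by Benjamini-Hochberg over all 13648. Tables used Python 3.11.15 with pandas 2.3.3 and numpy 2.4.6, and figures matplotlib 3.10.9. The procedure was tested on simulated data with a spread taken from replicates 1 and 2 of both mutant lines. The wider spread between the Col-0 arrays was not simulated.

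Genes given in full were the members of 3 role lists, tandem neighbours, and up to 4 genes per direction of smallest unadjusted p in each comparison; AT3G03670, AT5G19890, AT3G49960, AT2G37130, AT4G30170, AT3G01190, PRXR1 and AT3G21770 were chosen after their values were seen. The peroxidases and all gene lists were chosen with earlier results of these data known. Deviations of same-numbered arrays from their line means correlated at -0.234 to 0.190, and those of differently numbered arrays at -0.229 to 0.242. With 3 arrays a line and outlying arrays among them, this cannot decide whether replicate numbers pair the arrays. Alternatives were pseudocounts of 1 and 64, no filter and the 60th percentile, quantile normalization, median centring, eBayes without trend or robust, array weights, an adjusted p under 0.1, a replicate block, only the compared lines, and arrays left out; leaving out replicate 3 of both mutants was added after seeing the data.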

Additional observations from a re-analysis of the deposited data

How the results depend on the processing

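The calls and medians of the peroxidases depended on which arrays stood for Col-0. The medians also moved with the pseudocount, the filter and array weights. In cngc1-3 and cngc19 against Col-0 they were 1.59 and 1.69 with a pseudocount of 16. They were 2.15 and 1.82 with 1, and 0.88 and 1.15 with 64. Without the filter they were 1.1 and 1.27, and with the filter at the 60th percentile 2.1 and 1.91. The median of all probe sets in the fit moved with the filter. It was -0.42 and -0.38 without the filter, and 0.31 and 0.37 at the 60th percentile. The peroxidases' medians lay 1.52 and 1.65 above it without the filter, and 1.79 and 1.54 at the 60th percentile. With array weights the peroxidases' medians were 2.25 and 1.95. Against 0 peroxidases past the test, array weights gave 19 in cngc1-3 and 18 in cngc19. Leaving out Col-0 replicates 2 and 3 and replicate 3 of both mutants gave 17, 24 and, between the mutants, 2. With 1 array left out in turn the number ran from 0 to 23 in cngc1-3 and from 0 to 25 in cngc19, the highest without Col-0 replicate 1, and 1 in each without cngc19 replicate 3. The median log2 fold change reversed without Col-0 replicates 2 and 3, to -0.27 in cngc1-3 and -0.24 in cngc19, and to -0.20 and -0.26 when replicate 3 of both mutants was left out too; with 1 array left out it ran from 1.00 (without Col-0 replicate 3) to 2.50 (without Col-0 replicate 1) in cngc1-3 and from 1.16 to 2.14 in cngc19. Between the mutants the median of -0.24 became -0.14 with a pseudocount of 64, -0.17 with median centring, -0.05 with array weights, -0.02 without replicate 3 of both mutants (with or without Col-0 replicates 2 and 3), and -0.31 to -0.06 with 1 array left out. In cngc19 against Col-0, AT5G64110 reversed to 0.15 without Col-0 replicates 2 and 3 and to 0.29 without replicate 3 of the mutants as well, and AT2G34060 to 0.18 and 0.11 there and to 0.03 with median centring. Between the mutants, PRX71 (AT5G64120) reversed to -0.26 with array weights, -0.23 without replicate 3 of both mutants and -0.64 without cngc19 replicate 3, and AT4G36430 to -0.05, -0.16 and -0.09 under the same settings; with 1 array left out they ran from -0.64 to 1.66 and from -0.09 to 0.58. There, AT1G49570 reversed to 0.10 (lowest -1.80) and AT2G41480 to 0.02 (lowest -1.51) without cngc19 replicate 3, and AT5G51890 to 0.17 (lowest -1.22) without cngc1-3 replicate 3. Single named genes came to pass the test in 31 of their results under alternatives, kept direction and call in 498 and reversed in these 16. The cause was not tested. The replicate block gave medians of 1.59, 1.69 and -0.24 and 0 calls, and an adjusted p under 0.1 gave 0 calls. Median centring moved the median of all tested probe sets to 0.49 in both mutants against Col-0 and quantile normalization to 0.28 and 0.30; the peroxidases' median stayed 1.62 and 1.64 above it with centring and 1.54 and 1.47 with quantile normalization. Dim genes have no detection calls here, so low signals are not shown to be above background.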
